A study of Mus musculus with 2 samples.

Results

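The mRNAs examined here encode the proteasome: the subunits of its 20S core and 19S regulatory particle, its activators and inhibitor, and the chaperones of its assembly. They were chosen by name alone, as the array features with a RefSeq mRNA accession whose gene name began with Psma to Psmg followed by a digit. The rule found 49 genes, each with 1 accession, of 18754 such accessions on the array. They comprised 8 alpha and 11 beta subunits of the core, 6 ATPase and 14 non-ATPase subunits of the regulatory particle (among which are 3 of its assembly chaperones), 4 activators, 1 inhibitor, 4 assembly chaperones and Psmc3ip. The last of these matches the name pattern but encodes a meiotic recombination factor and not a subunit.

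NIH3T3 cells, an established line of mouse fibroblasts, had been grown with 10% serum and were either kept without treatment (control) or given 10 µM thapsigargin, which blocks the calcium pump of the endoplasmic reticulum, for 3 h. Cycloheximide, which holds ribosomes on mRNA, was used in both conditions before lysis, and lysates were run on 10 to 40% sucrose gradients. RNA from polysomes (P, labelled with Cy3) and RNA from the pooled free and monosome fractions (FM, labelled with Cy5) were hybridised together, on 1 array per condition that held RNA pooled from 3 preparations. With 1 array per condition differences between the conditions cannot be checked against replicates and were not tested, so the values below describe a pair of arrays.

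The proteasome degrades proteins that carry ubiquitin. Its 20S core is a barrel in which rings of alpha subunits form the gate and rings of beta subunits hold the proteolytic sites, while the 19S particle binds ubiquitin, removes it and threads the substrate into the core with a ring of ATPases. The parts are needed in fixed proportions, and separate chaperones build the core and the base of the 19S particle.

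Polysome association is given as log2 P/FM, the P signal divided by the FM signal on the log2 scale, which is above 0 where more signal came from polysomes. The average log2 signal of the channels, A, stood for abundance, and mRNAs with A above 4.5 on both arrays were compared. Of the 49 genes, 46 passed, and each of these was well above background with every probe in both channels of both arrays. Psma8, an alpha subunit of the testis, Psmb11, a beta subunit of the thymus, and Psmb8, a subunit of the interferon-induced immunoproteasome, were not well above background in any channel, and no ratio is given for them. Among all coding mRNAs 10033 passed. Their median log2 P/FM reached 0.34 in control and -0.29 in thapsigargin-treated cells, and the median change (thapsigargin minus control) was -0.71. For the marker genes too, a channel counted as well above background only if every probe passed. Of the fibroblast markers, Col1a1, Col1a2, Vim and Thy1 were well above background in all channels. Col3a1, which has 2 probes, was not, with mean P signals of 118 and 83.3 and FM signals of 84.1 and 97.0 in control and treated cells. Of the markers of other lineages, Ptprc, Cdh1, Epcam and Pecam1 were not well above background in any channel, and the T cell gene Cd3e was in all of them, with P signals of 49.4 and 27.6 and FM signals of 89.7 and 134 in control and treated cells.

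Before the values, the probes of the mRNAs at both ends of the response are shown, since a probe decides which transcript is measured. Psma7 and Psmb6 had the largest falls, and Psmd1, Psmd14 and Psme4 were the 3 mRNAs that did not fall by 0.8 or more. Each line gives bases 1 to 30 of a probe of 60 bases, 5′ to 3′ along the mRNA, all in lower case because no part of it was singled out. The positions are those of the whole probe on mm9 in the deposited files, and where they span more than 60 bases the probe crosses a splice junction. Whether a probe lies in coding sequence or in an untranslated region was not settled here. For Psmd14, the upstream and downstream ends refer only to the order of its 2 RefSeq probes.
Psma7 (chr2:179771149-179771208, minus strand): agaagcaaaagaaagcatcttgatgaagag
Psmb6 (chr11:70341014-70341073, plus strand): tagagcggcaggtgcttttgggagaccaaa
Psmd1 (chr1:88023048-88023107, plus strand): gctgtattccaaagtcatcaatgacaaaca
Psmd14, probe at its upstream end (chr2:61599058-61599117, plus strand): gcctatggaagttatgggtctaatgcttgg
Psmd14, probe at its downstream end (chr2:61635507-61638090, plus strand): gcaagcaggatcccaaacgtcatttggaag
Psme4, first probe (chr11:30721054-30723098, plus strand): ggagaacttgaaatgtctagagatgatatt
Psme4, second probe (chr11:30776868-30778426, plus strand): cagcctattgagatgactgtaaagaagacc
Psme4, last probe (chr11:30780168-30780227, plus strand): aaagtctcagagttaacctagaacctgaca

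In control cells most proteasome mRNAs had more P than FM signal. Their median log2 P/FM was 1.78, and 45 of 46 were at or above 0, against 63.5% of all coding mRNAs. In total 42 of 46 lay above the median of all coding mRNAs. The values ran from -0.03 for Psme4, a large single-chain activator of the core, to 3.27 for Psma6, a subunit of the alpha ring. The beta subunits had the highest group median, 2.49, followed by the alpha subunits at 2.21, the non-ATPase subunits at 1.78, the assembly chaperones at 1.46, the ATPases at 1.40 and the activators at 1.06. The inhibitor Psmf1 was at 0.80 and Psmc3ip at 0.09. Of the 16 core mRNAs that passed, 11 were above the highest ATPase, Psmc4, which was at 2.12.

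In treated cells the groups stood in another order. The median log2 P/FM of the 46 mRNAs was -0.26, close to that of all coding mRNAs, and 24 of 46 lay above the latter. The count at or above 0 was 17 of 46, against 37.4% of all coding mRNAs. Of the groups of several genes the beta subunits were now the lowest, with a median of -0.75, beside the assembly chaperones at -0.64 and the activators at -0.48. The alpha subunits were at -0.24, the ATPases at 0.07 and the non-ATPase subunits at 0.10. The range was from -1.94 for Psmg4, a chaperone of alpha ring assembly, to 0.89 for Psmd13, a subunit of the lid of the 19S particle.

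**Figure D1:**
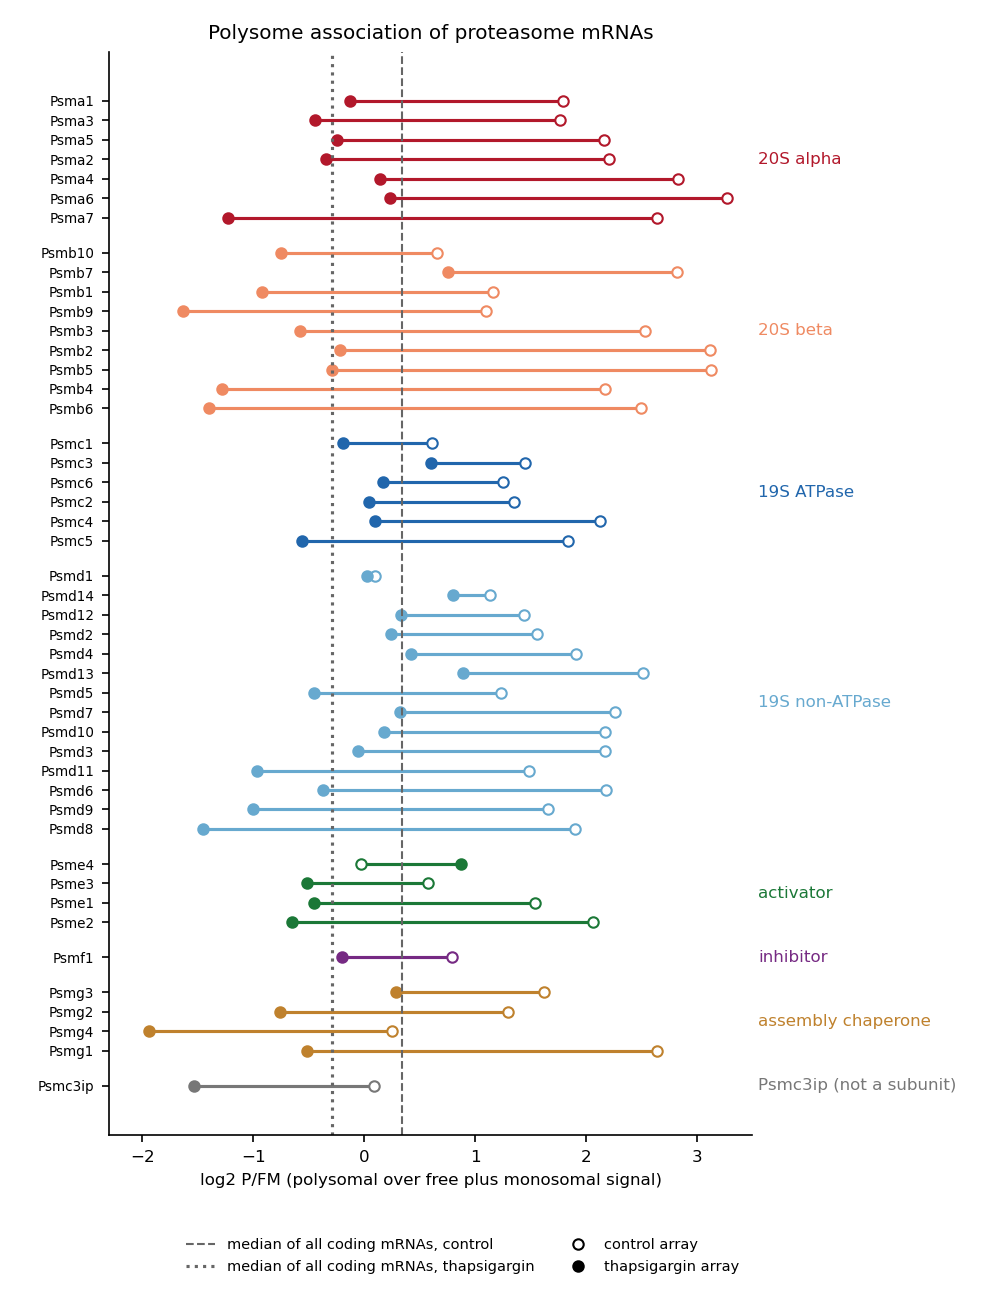
log2 P/FM of the 46 proteasome mRNAs that passed the filter on A (horizontal axis), 1 row per mRNA, grouped by role and coloured by group. Open circles are the control array, filled circles the thapsigargin array, and the vertical lines the medians of all coding mRNAs (0.34 and -0.29). The long lines of the core subunits contrast with the short ones of Psmd1 and Psmd14, and the line of Psme4 runs the opposite way.

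The change from control to treated cells had a median of -2.06 over the 46 mRNAs, which is -1.35 relative to the median of all coding mRNAs. A fall of 0.8 or more, the size by which the study calls an mRNA sensitive, was found for 43 of 46, against 47% of all coding mRNAs. A fall of 2 or more was found for 25 of 46, against 13.7%. Just inside the limit of 0.8 were the ATPases Psmc1 at -0.80 and Psmc3 at -0.85, and the nearest value outside it was Psmd14 at -0.33. Psmc1 lost the call with median pixels, and Psmc1, Psmc3 and Psmf1 lost it without background subtraction. The fall was deepest for the beta subunits, with a median of -3.11, followed by the alpha subunits at -2.55, the assembly chaperones at -2.12, the non-ATPase subunits at -1.81, the activators at -1.54 and the ATPases at -1.20. Of the 16 core mRNAs, 11 had a lower value than every ATPase, and 4 of the 6 ATPases had a higher value than every core mRNA. With normexp background correction only Psmc3 had a higher value than every core mRNA.

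The direction of these changes depends on the scale. The ratios were not normalized, and the 10 spike-in RNAs of the array kit had a median change of -2.46, from -2.65 to -2.18. Centring each array on them would add 2.54 to every change and place the median of the 46 mRNAs at 0.48 and that of all coding mRNAs at 1.83. The distance between the proteasome mRNAs and all coding mRNAs, and that between the groups, is the same on either scale. The paper states that both fractions were labelled in their measured RNA proportions. P held more RNA than FM in control cells, and FM held more than P after stress. How far centring on the spike-ins takes out this difference was not tested. With loess within each array the distance to all coding mRNAs was -0.73 and the ATPase median 0.11. The processed signals of the scanner software, which differ in background handling as well as in dye normalization, gave -0.70 and 0.092. With both, Psmc1, Psmc2, Psmc3 and Psmc6 were above 0.

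Among the alpha subunits, which form the outer rings, all 7 that passed fell by 0.8 or more. For Psma6, the signals were 7804 for P and 811 for FM in control and 3159 and 2688 in treated cells, so that log2 P/FM went from 3.27 to 0.23 and changed by -3.03. For Psma7, they were 16803 and 2699 in control and 6435 and 15014 in treated cells, so that log2 P/FM went from 2.64 to -1.22 and changed by -3.86. Psma7 was thus the alpha mRNA with the lowest treated value, while Psma6 kept slightly more signal in polysomes than outside them. The remaining 5 alpha mRNAs changed by -1.93 (Psma1) to -2.69 (Psma4).

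The beta subunits include the 3 catalytic ones. Psmb5, which carries the chymotrypsin-like site, went from 3.13 to -0.29, with P signals of 11699 and 3996 and FM signals of 1339 and 4878 in control and treated cells. Psmb6, which carries the caspase-like site, went from 2.49 to -1.40, with P signals of 13276 and 4286 and FM signals of 2360 and 11278. Psmb7, which carries the trypsin-like site, went from 2.82 to 0.75, with P signals of 4151 and 1997 and FM signals of 586 and 1185. The P signal of all 3 was lower and the FM signal higher in treated cells, and the changes in log2 P/FM were -3.42, -3.89 and -2.07. Psmb6 had the largest fall of all 46 mRNAs, with 0.100% of all coding mRNAs at or below it, whereas Psmb7 had the highest treated value of the core mRNAs.

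The noncatalytic beta mRNAs Psmb1, Psmb2, Psmb3 and Psmb4 changed by -2.07, -3.33, -3.11 and -3.45. Over the 14 constitutive core mRNAs, Psma1 to Psma7 and Psmb1 to Psmb7, the median went from 2.51 to -0.31, and the median change was -2.86. The immunoproteasome subunits, which replace the catalytic ones in immune cells and after interferon, were less loaded in control cells. Psmb9 went from 1.10 to -1.64, a change of -2.74, with low signals (P 74.5 and 44.4, FM 34.8 and 138). The Psmb9 change was -1.65 without background subtraction and -0.64 with normexp, which ends its call. Psmb10 went from 0.65 to -0.75, a change of -1.40, with P signals of 4062 and 2064 and FM signals of 2583 and 3475. Psmb10 was the core mRNA with the lowest control value and the smallest change.

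The ATPases, which unfold the substrate, all fell by 0.8 or more, but 4 of 6 by less than any core mRNA. Psmc1 went from 0.61 to -0.19, with P signals of 3721 and 2839 and FM signals of 2438 and 3247. Psmc3 went from 1.45 to 0.60, with P signals of 1251 and 979 and FM signals of 458 and 644. Psmc6 and Psmc2 changed by -1.08 and -1.31. At the other end of the ring, Psmc5 went from 1.84 to -0.56, a change of -2.39, with P signals of 1237 and 564 and FM signals of 346 and 829, and Psmc4 changed by -2.03. On this scale the 6 ATPases thus split into 4 with changes above -1.4 and 2 with changes below -2, with nothing in between. With normexp background correction Psmc2 was at -1.16 and Psmc4 at -1.46, so that the gap was narrower. Psmb9 was then at -0.64, and only Psmc3, at -0.43, had a smaller fall than every core mRNA. Psmc3ip, the unrelated gene, went from 0.09 to -1.53 and changed by -1.62.

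The changes of the non-ATPase subunits were spread from -3.35 to -0.07. Psmd1, the scaffold of the base to which substrate receptors attach, went from 0.10 to 0.02, with P signals of 419 and 1093 and FM signals of 392 and 1076. Both of its signals were thus higher in treated cells, and its change was -0.07. Psmd14, the deubiquitinase that removes ubiquitin before degradation, went from 1.13 to 0.80, with P signals of 1111 and 1168 and FM signals of 507 and 670. At the other extreme Psmd8, a lid subunit, went from 1.90 to -1.45, with P signals of 2755 and 793 and FM signals of 737 and 2168, and its change of -3.35 lay within the range of the core. The remaining members changed by -1.12 (Psmd12) to -2.66 (Psmd9), among them the ubiquitin receptors Psmd2 at -1.32 and Psmd4 at -1.49. The lid subunit Psmd7, the inactive partner of Psmd14, went from 2.26 to 0.32 and changed by -1.94, so that both partners differed by more than their probes did.

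Resistant mRNAs, whose log2 P/FM stayed at 0.8 or more in treated cells after such a value in control cells, were 2 of 46, against 3% of all coding mRNAs. They were Psmd14, which lay at the limit in treated cells, and the lid subunit Psmd13, which went from 2.51 to 0.89. The Psmd13 change was -1.62, so that it met the sensitive and the resistant definition at once, but the change was -0.069 with normexp background correction, which ends the sensitive call. Its P signals were 359 and 136 and its FM signals 62.9 and 73.4. On the scale used here no proteasome mRNA was inducible, against 8.86% of all coding mRNAs. Inducible means a control value of 0 or less that is exceeded by 1 or more after thapsigargin. Psme4 alone had a control value of 0 or less and could meet this definition, and its change was 0.91. That change was 1.54 after centring on all coding mRNAs, 1.29 with loess, 1.19 with the processed signals and 3.45 after centring on the spike-ins. Centring on all coding mRNAs lowers each control value by their control median of 0.34, so Psme4 meets the inducible definition on that scale. The inducible call was not made on the other scales. Without centring, the Psme4 probes were at -0.42, 0.30 and 0.04 in control cells.

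The activators bind the ends of the core in place of the 19S particle. Psme1 and Psme2, which form the interferon-induced activator, changed by -1.99 (from 1.54 to -0.45) and -2.72 (from 2.06 to -0.65), and the related nuclear activator Psme3 by -1.09 (from 0.57 to -0.52). Psme4, a nuclear activator that is known for the degradation of histones, was the only one of the 46 mRNAs with a higher value in treated cells on the scale used here. Psmd1 and Psmd14 joined it with normexp background correction (0.15 and 0.016), after centring on all coding mRNAs (0.56 and 0.30), with loess (0.76 and 0.61) and with the processed signals of the scanner software (0.75 and 0.59). Its own log2 P/FM went from -0.03 to 0.88, with P signals of 122 and 281 and FM signals of 125 and 153. This change of 0.91 is 1.62 relative to the median of all coding mRNAs, and 88.8% of these had the same change or a lower one. The inhibitor Psmf1 went from 0.80 to -0.20, with P signals of 124 and 111 and FM signals of 71.1 and 127, a change of -0.995.

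The assembly chaperones of the core work as 2 pairs. Psmg1 went from 2.64 to -0.52, with P signals of 931 and 464 and FM signals of 149 and 664, and its partner Psmg2 went from 1.29 to -0.76. In the second pair Psmg3 went from 1.62 to 0.28, with P signals of 1520 and 1554, and Psmg4 from 0.26 to -1.94, with P signals of 294 and 186 and FM signals of 246 and 713. The first pair stood apart in control cells and was close in treated cells, with changes of -3.16 and -2.05, and the second stood apart in both conditions, with changes of -1.34 and -2.20. The chaperones that hold the ATPases during assembly, Psmd5, Psmd9 and Psmd10, changed by -1.69, -2.66 and -1.99.

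Different probes of one mRNA are the only repeat measurements, and they carry no information on how preparations vary. Among the 14 proteasome mRNAs with 2 or 3 probes that passed, the median SD of the change between probes was 0.23, and over 3438 coding mRNAs with several probes it was 0.32. The 2 Psmd14 probes went from 1.14 to 0.47 and from 1.13 to 1.13, changes of -0.67 and 0.01, so that the probe at the downstream end alone would not be resistant. The 3 Psme4 probes changed by 1.35, 0.50 and 0.88 in the order in which they are printed above, and all were higher in treated cells. The 3 Psmf1 probes changed by -0.60, -0.68 and -1.70, with an SD of 0.61, the largest among the proteasome mRNAs. The call of Psmf1 as fallen by 0.8 or more rested on the probe with -1.70. Psmd1, Psma7 and Psmb6 had 1 probe each and no such check.

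**Figure D2:**
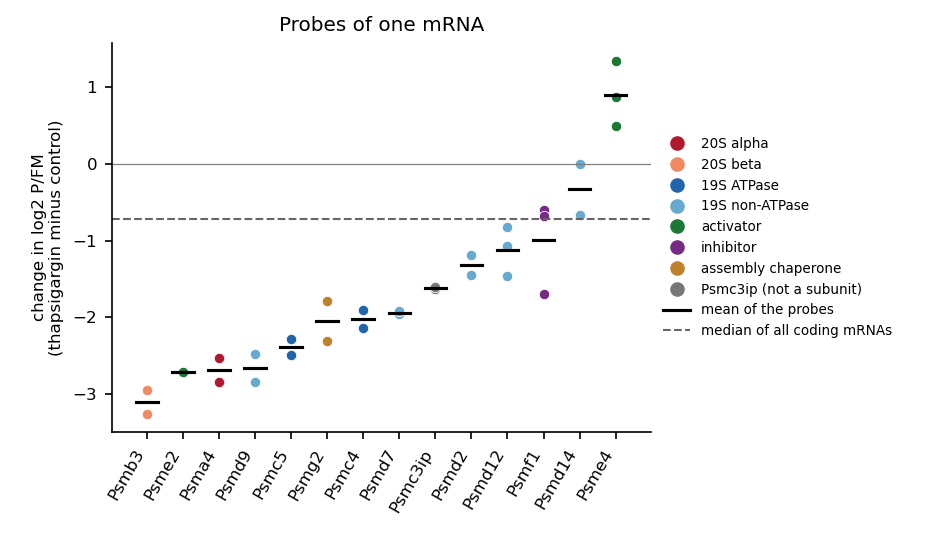
Change in log2 P/FM (vertical axis, thapsigargin minus control) of each probe of the 14 proteasome mRNAs with 2 or 3 probes. Circles are probes, coloured by group, short lines the means per mRNA, and the dashed line the median of all coding mRNAs (-0.71). The probes of Psmf1 lie furthest apart, and all 3 of Psme4 lie above 0.

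The change in log2 P/FM was then split into the signals of both fractions. The P signal was lower in treated cells for 41 of 46 mRNAs, against 49.3% of all coding mRNAs, and its median change was -0.92 on the log2 scale, against 0.02. The FM signal was higher for 46 of 46, against 86.6%, and its median change was 1.39, against 0.72. The spike-in RNAs themselves changed by -1.53 in P and 0.96 in FM. Beside them the P signal was lower for 3 of 46 mRNAs (Psmb5, Psmb6 and Psmd8) and the FM signal higher for 33 of 46. The shares of all coding mRNAs on those sides of the spike-ins were not counted. Over all coding mRNAs the change in P had a 5th percentile of -1.43, and the median change in FM was 0.72. The core subunits had the lowest changes in P signal, with a median of -1.40 for the beta and -1.03 for the alpha subunits, whereas the ATPases changed by -0.37. The median FM signal changed by 1.87 for the beta subunits, 1.42 for the alpha subunits and 1.02 for the ATPases. The 5 mRNAs with a P signal that was not lower were Psmd1 (1.38), Psme4 (1.20), Psmd2 (0.15), Psmd14 (0.07) and Psmg3 (0.03). Psmd1 and Psme4 differed in FM, where Psmd1 changed by 1.46 and Psme4 by 0.30. Psmd13 had a lower P signal (-1.40) with the smallest change in FM signal of all 46, 0.22.

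**Figure D3:**
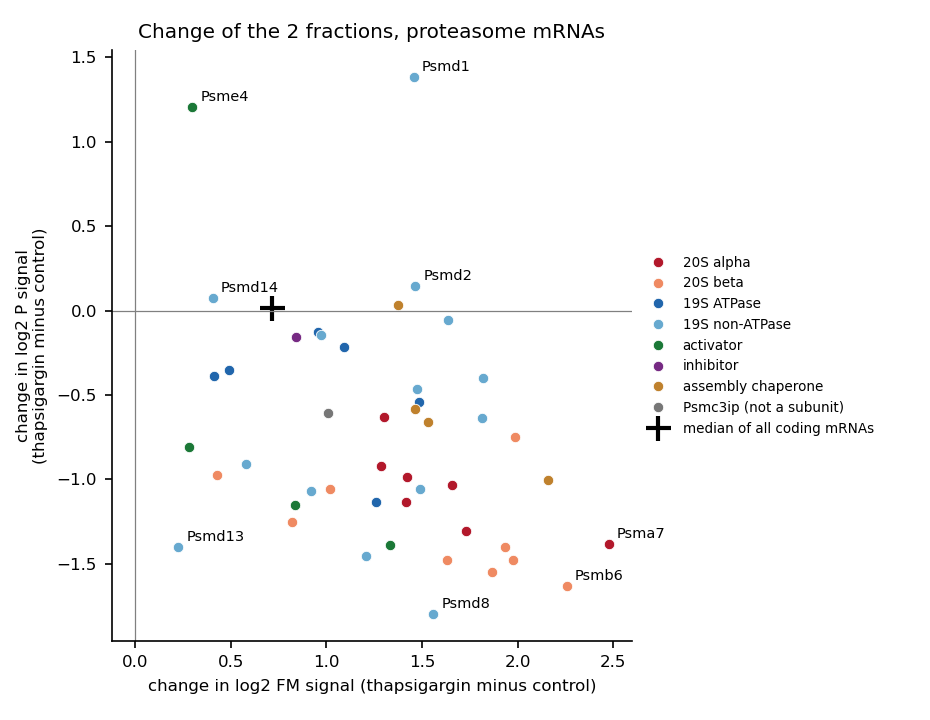
Change in log2 P signal (vertical axis) against change in log2 FM signal (horizontal axis), thapsigargin minus control, for the 46 proteasome mRNAs, coloured by group, with the medians of all coding mRNAs as a cross. All points lie to the right of 0, and 41 lie below 0, with Psma7 and Psmb6 at the lower right and Psme4 and Psmd1 at the top.

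The abundance measure A, which was not normalized, changed little on the scale used here. Its median change was 0.24 over the 46 mRNAs, against 0.37 over all coding mRNAs, and 17 of 46 lay above the latter. The group medians ran from -0.09 for the activators to 0.51 for the assembly chaperones. Psmd1 was the single mRNA that rose by 1 or more in A, with 1.42, against 11.7% of all coding mRNAs. The lowest value was -0.59 for Psmd13. With normexp the median change in A of the 46 mRNAs was -0.10, and with the processed signals -0.14. The spike-in RNAs changed by -1.53 in P and 0.96 in FM, and A was not computed relative to them. The sign of the change in A thus depends on the scale as well. A averages the log2 signals of P and FM and does not add the fractions. It is therefore higher, for the same summed signal, when the fractions are more even. The summed signal was not computed, so the change in A is not a measure of total mRNA alone. In RNA from whole cultures, fewer cells with an mRNA and less of it per cell cannot be told apart.

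Above a mean A of 7, brighter mRNAs fell more on these arrays, and proteasome mRNAs were bright, with a median A of 10.4, against 7.65 over all coding mRNAs. The median change of all coding mRNAs was -0.28 for a mean A of 4.5 to 5.5, -0.22 for 5.5 to 7, -0.67 for 7 to 9, -1.26 for 9 to 11, -1.71 for 11 to 13 and -1.99 above 13. Within these bands 36 of 46 proteasome mRNAs lay below the median of their band, and the median distance of all 46 was -0.80. The count was 15 of 16 for the core, 10 of 14 for the non-ATPase subunits, 4 of 4 for the assembly chaperones, 3 of 4 for the activators and 2 of 6 for the ATPases. Beside mRNAs of like signal the ATPases were thus not low, with a median of 0.41 above their bands, and Psmb10 was the core mRNA above its band, by 0.31. Psme4 lay 1.58 above its band and Psmd1 1.18 above. The part of signal in the differences between the groups was not tested.

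**Figure D4:**
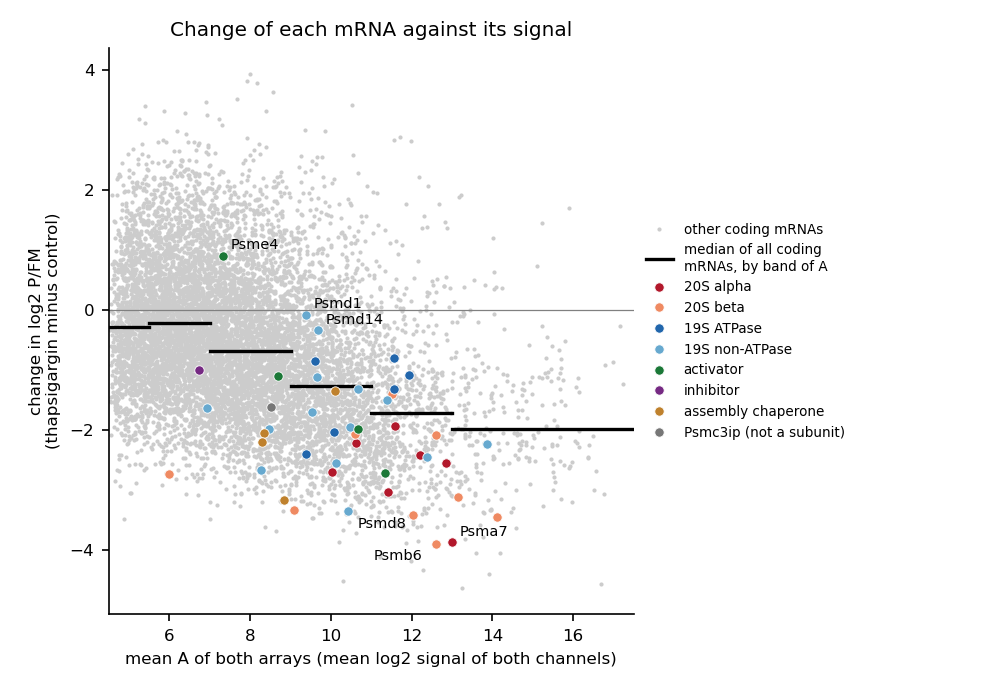
Change in log2 P/FM (vertical axis) against the mean of A on both arrays (horizontal axis) for all coding mRNAs (grey) and the proteasome mRNAs, coloured by group. Black lines are the medians of all coding mRNAs in bands of A, which run from -0.28 and -0.22 in the 2 dimmest bands to -1.99 in the brightest, and the core subunits lie below them except Psmb10.

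Other genes of the pathway were taken from a list of partners and of the ubiquitin supply, of which 25 genes with 26 accessions were found and passed. Their median change was -0.66, close to that of all coding mRNAs. A fall of 0.8 or more was found for 11 of 26, against 47% of all coding mRNAs, and 8 of 26 lay below the median of their band. Pomp, the maturation factor of the core, went from 1.59 to 0.30, and the ubiquitin receptor Adrm1 from 1.59 to -0.39, changes of -1.29 and -1.98. Shfm1, a small lid subunit, had less P than FM signal in both conditions on the scale used here, at -0.95 and -1.60. The deubiquitinases Usp14 and Uchl5 changed by -0.67 and -1.59.

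Vcp, the ATPase that extracts ubiquitinated proteins from membranes and complexes, went from 1.30 to 1.78, and its A was higher by 1.07. The polyubiquitin mRNA Ubb went from 0.39 to -0.72. Nfe2l1, the transcription factor that raises proteasome genes when the proteasome is inhibited, went from 0.63 to 0.38 with A higher by 1.53, and the related Nfe2l2 from 0.32 to 0.85 with A higher by 1.35. Zfand2a met the inducible definition (1 of 26, against 8.86% of all coding mRNAs), and Akirin2, Uba1 and Vcp the resistant one (3 of 26, against 3%).

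A pair of other large assemblies was set beside the proteasome by medians and counts. For the 8 mRNAs of the cytosolic chaperonin, which folds actin and tubulin, the median went from 0.99 to -0.54, the median change was -1.395, and 7 of 8 fell by 0.8 or more. For 36 mRNAs of respiratory complex I the median went from 1.61 to -1.36, the median change was -2.82, and 34 of 36 fell by 0.8 or more. Of all coding mRNAs 47% fell by as much. The median of the 46 proteasome mRNAs lay between them, with the beta subunits beyond complex I and the ATPases beside the chaperonin.

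The promoters were searched for the core of the antioxidant response element, TGACNNNGC on either strand, which Nfe2l1 and Nfe2l2 are known to bind. The change in A is set beside the matches below, although it also depends on the split between fractions. RefSeq windows of 250 bases before to 50 after the start (GRCm38.p6) were at hand for 41 of the 49 genes. The motif was found in 6 of 41 (14.6%), against 14.0% of the 27025 genes in the table. The genes were Psmb5, Psmb6, Psmc6, Psmd9, Psmd12 and Psme4. For the 3 matches that lie with 20 bases on either side before the start, the window is printed 5′ to 3′ along the gene, with the match in capitals.
Psmb5 (chr14:54618014-54618062, minus strand): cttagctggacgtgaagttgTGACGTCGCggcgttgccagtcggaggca
Psmc6 (chr14:45329577-45329625, plus strand, match on the opposite strand): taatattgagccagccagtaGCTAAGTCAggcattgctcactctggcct
Psmd9 (chr5:123228139-123228187, plus strand): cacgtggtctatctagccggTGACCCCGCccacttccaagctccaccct
The 6 genes with a match had a median change in A of 0.36, and the 33 without one that passed had 0.22.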

How the data were processed

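The authors extracted the intensity of each spot and of its local background with Agilent Feature Extraction 10.7.1, per the labels. The deposited series table holds log2 values of Cy3 over Cy5, not normalized. It held 45 of the members, and the values of all 45 equalled those computed here within 0.001.

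Here the local background was subtracted from the mean spot signal with limma 3.58.1 (R 4.3.3), and results below 0.5 were set to 0.5. Of 43379 spots, 295 flagged as outliers were left out, and none was saturated. Spots were averaged per probe and probes per accession. No normalization was applied. Members matched RefSeq symbols of GRCm38.p6 in 49 of 49 cases. Both arrays shared 1 slide and 1 scan. Between 42.5% and 46.3% of spots were well above background per channel, and 1 array per condition limits the precision. Members, gene lists and thresholds were chosen with earlier results of these data known. Named were the extremes of each group, every member above -0.8 or with several probes, and the catalytic, immune, activator, inhibitor and chaperone members. Groups were taken from the labels. Steps were tested on simulated data. The 15 alternatives covered background correction, pixel summary, dye normalization, centring, the filter on A, the unit counted and outlier spots. Some genes of the partner list are not reported here.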

Additional observations from a re-analysis of the deposited data

Results flagged for a closer look

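Probes for the same genes under other accessions were not used above, and 4 of 8 such probes were well above background in 1 or more channels. The Psmc6 probe (transcript ENSMUST00000022380), in all 4 channels, changed by -0.54 in log2 P/FM, beside -1.08 for the RefSeq accession. The Psmd7 probe (AK158379) had P signals of 31.1 and 13.9 and FM signals of 1145 and 146 in control and treated cells, so that log2 P/FM was -5.20 in control cells. In treated cells its P spot was too dim to pass the background test, so the change of 1.81 is not a measured ratio. This holds also for the Psmd11 probe (AK157616), at -1.37, whose FM spot was too dim on the control array, and for the Psmc2 probe (AK083989), at 1.98, which was well above background in FM of the control array alone.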

How the results depend on the processing

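No paired analysis was possible because each condition has 1 array, and for the same reason no replicate was left out. Of 15 alternatives, the beta subunits had the lowest group median in 13 and the ATPases the highest in 14. The beta median minus the ATPase median ran from -2.02 to -1.04. Many of the 15 could not alter this difference or left it as it was. Both centrings shift all changes alike. With the deposited values, A above 5.5, no filter on A, only mRNAs well above background, gene symbols or outlier spots kept, it stayed at -1.91. Lowest were the alpha subunits with normexp and the assembly chaperones with loess. The activators were highest with each probe counted. A value counts as moved when it shifts by more than the median SD between probes of one mRNA, 0.29 for control log2 P/FM, 0.28 for treated, 0.32 for its change and 0.18 for the change in A. No median or count moved with median pixels, no background subtraction, the deposited log2 values, A above 5.5, no filter on A, only mRNAs well above background, gene symbols as the unit or outlier spots kept. The causes of the shifts below were not tested.

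With normexp (offset 50) the median log2 P/FM was 1.25 in control, its change -1.56 and the change in A -0.10, and the group medians of the change were -2.11 (beta), -1.24 (non-ATPase), -1.20 (activators) and -1.35 (assembly chaperones). Of the 43 falls of 0.8 or more, 7 lost the call with normexp, namely Psmb9, Psmc1, Psmc3, Psmd12, Psmd13, Psme3 and Psmf1. With the processed signals of Feature Extraction the medians were 1.09 in control and 0.37 in treated cells, the change was -0.97, or -0.70 relative to all coding mRNAs, the change in A was -0.14 and 27 mRNAs (58.7%) fell by 0.8 or more, against 32.6% of all coding mRNAs. The group medians were then -1.10 (alpha), -1.93 (beta), 0.092 (ATPases), -0.77 (non-ATPase), -0.66 (activators) and -1.73 (assembly chaperones), and Psmc1 changed by 0.64. With loess the medians were 1.11 and 0.33, the change was -0.88, or -0.73 relative to all coding mRNAs, and 26 (56.5%) fell, against 27.2%. The group medians were then -1.001, -1.54, 0.11, -0.77, -0.59 and -1.57 in the same order, and Psmc1 changed by 0.60. Centring on all coding mRNAs gave medians of 1.44 and 0.025 and a change of -1.43, with group medians of -1.92, -2.48, -0.57, -1.19, -0.91 and -1.49 in that order.

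Centring on the spike-ins gave medians of 2.21 and 2.70, a change of 0.48 and 5 mRNAs (10.9%) that fell, against 0.658% of all coding mRNAs. The group medians were then -0.013, -0.57, 1.34, 0.72, 1.00 and 0.42 in that order. The sign turned for 28 of the 43 mRNAs that had fallen by 0.8 or more. Among those chosen to be named by the stated rule these were Psma1 (0.61), Psma3 (0.33), Psmb7 (0.47), Psmb10 (1.13), Psmc1 (1.73), Psmc3ip (0.92), Psmc4 (0.51), Psmc5 (0.15), Psmd2 (1.22), Psmd5 (0.85), Psmd7 (0.60), Psmd10 (0.55), Psmd12 (1.42), Psmd13 (0.91), Psme1 (0.55), Psme3 (1.45), Psmf1 (1.54), Psmg2 (0.49), Psmg3 (1.20) and Psmg4 (0.34). With A above 7 the change relative to all coding mRNAs was -0.98 and the activator median -1.99. With each probe counted the ATPase median was -1.61 and the activator median -1.09, and 55 of 62 probes (88.7%) fell by 0.8 or more, against 45.2%.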
